A study of Mus musculus with 16 samples.

Results

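The subject is how the effect of losing Nanos3 on the fetal mouse ovary changed between embryonic day (E) 12.5 and E15.5. It rests on the 8 ovary samples of the 16 samples in the series, chosen by their labels: 4 knockout (Nanos3-/-) and 4 heterozygous (Nanos3+/-) ovaries, 1 of each on each of the 4 days E12.5, E13.5, E14.5, E15.5. The knockout effect on a day is the log2 level in the knockout ovary minus that in the heterozygous ovary. Its change was measured as a slope over the 4 days and as the late days (E14.5 and E15.5) minus the early days (E12.5 and E13.5). The other 8 samples are knockout and heterozygous testes of the same 4 days, which share the estimate of the error and serve as a comparison. RNA came from whole gonads, so every sample mixes germ cells with somatic and blood cells. Each sample combines replicates 1 and 2 by its title, and no replicate of a day, genotype and sex was analysed separately. The controls carry 1 Nanos3 allele, and no wild-type gonad was analysed here. The labels name no strain, and do not say how the allele was made or how many embryos were pooled.

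Nanos3 encodes an RNA-binding protein that migrating primordial germ cells need to survive, so gonads that lack it are colonised by few or no germ cells. In a fetal mouse ovary with germ cells, these cells divide and express pluripotency-associated genes when they arrive. They then switch those genes off, respond to retinoic acid by expressing Stra8, and enter meiotic prophase within the days sampled here. The somatic supporting cells become pre-granulosa cells, marked by Foxl2, over the same days, while definitive red blood cells from the fetal liver replace the first, yolk-sac-derived ones in the circulation.

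Expression was read on single-colour Agilent arrays. A level is given here as the log2 of the deposited ratio of a probe's signal to its typical signal over the samples, so levels compare samples for 1 gene and not genes with each other. The authors' values hold a limit for weak signals, and between 1554 and 11161 of 41174 probes per ovary sample were at it. After a filter 16581 genes were tested. The titles fitted the gonad markers in every sample. Foxl2 lay between 0.34 and 1.76 in knockout ovaries and between 0.44 and 1.90 in heterozygous ovaries, against -1.56 to -0.25 in all 8 testes. Sox9, the Sertoli cell determinant, lay between -2.18 and -0.67 in all 8 ovaries, against 0.73 to 1.87 in the testes. The description field of the ovary samples names male gonads, against their titles, sources and sex labels.

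Nanos3 itself had levels of -0.49, 0.15, -0.50 and -0.30 in knockout ovaries from E12.5 to E15.5, against 1.03, 0.27, -0.71 and -0.82 in heterozygous ovaries. The knockout ovary was lower at E12.5 and E13.5 and higher at E14.5 and E15.5, and the slope of the difference was 0.64 ± 0.33 per day (limma adjusted p = 0.317). Which part of the gene the probe covers is not given in the sources used here, so its level does not check the genotype. Ddx4, an RNA helicase gene of all germ cells after gonad colonisation, does so indirectly, at -6.31, -5.56, -5.88 and -5.30 in knockout ovaries and at 1.53, 2.31, 2.44 and 1.66 in heterozygous ovaries. The difference lay between -8.33 and -6.96 over the 4 days.

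The effect of the knockout changed with day for 532 of 16581 genes (3.21%), by limma with Benjamini-Hochberg adjusted p under 0.05. A positive slope means that knockout minus heterozygous became more positive with day, and 306 genes (1.85%) had one. A negative slope was called for 226 genes (1.36%). Among the positive calls the knockout ovary was lower than the heterozygous ovary at E12.5 for 232 genes, and it was higher at E15.5 for 257. Among the negative calls it was higher at E12.5 for 172 genes and lower at E15.5 for 207. The 4 daily differences went in order for 286 of the positive and 196 of the negative calls. An unadjusted p under 0.05 was reached by 3418 genes (20.6%).

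The number of calls leans on all 4 days and on the testis samples. Leaving out any 1 of the 4 days, or fitting the ovary samples alone, left 0 calls by limma, although between 2275 and 3184 genes had an unadjusted p under 0.05 in these fits. These fits keep only 2 residual degrees of freedom. With a day left out, the slope moved over 1.5 times for 8 of the 48 called genes named in this text, and none of the 48 changed sign. Without the matching of samples by day 97 genes were called, with array weights 18 and with no filter on weak genes 44. The split of the calls depends on how the arrays are scaled, with 57.5% positive here, 36.5% of 474 calls on the scale as deposited, and 63.2% of 761 after quantile normalization. The median slope of all genes was -0.02 per day here and -0.12 on the deposited scale. With 1 sample per genotype and day, a daily difference has no replicate of its own, and only the agreement of the days over the straight line gives its error.

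Each slope combines what happened in the knockout ovaries and in the heterozygous ovaries. The positive calls had a larger own slope in the knockout ovaries for 170 genes and in the heterozygous ovaries for 136. Of the negative calls, 55 had the larger own slope in knockout and 171 in heterozygous ovaries.

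**Figure D1:**
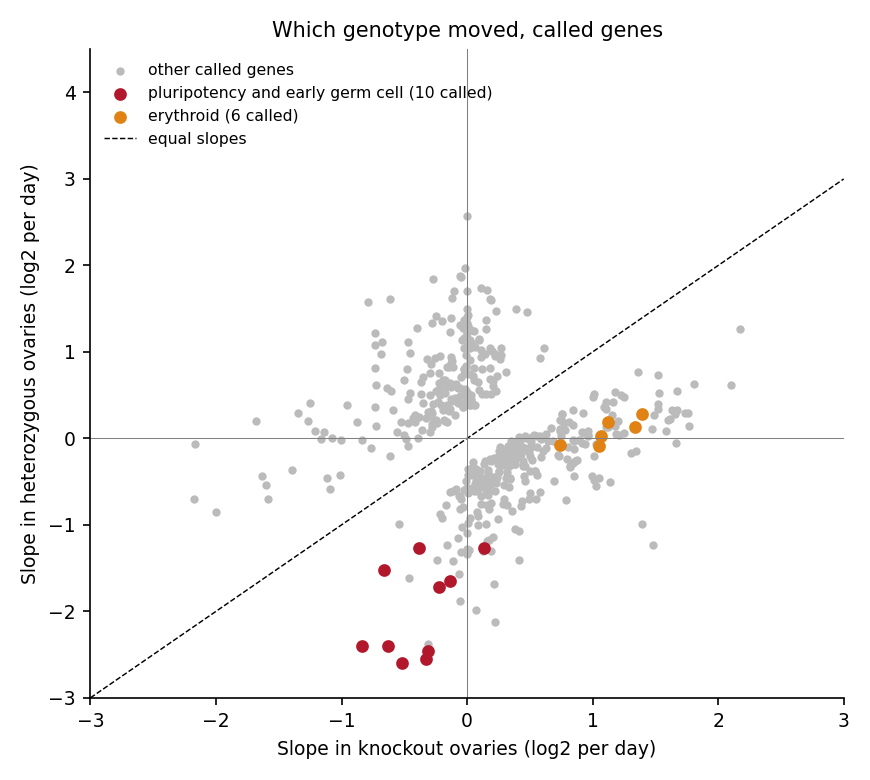
Each point is a gene whose knockout effect changed with day, with its own slope in knockout ovaries on the horizontal axis and in heterozygous ovaries on the vertical axis (log2 per day). Points below the dashed line of equal slopes have a positive slope of the difference; the 10 called pluripotency and early germ cell genes lie low, with heterozygous slopes of -2.59 to -1.27, and the 6 called erythroid genes lie to the right, with knockout slopes of 0.74 to 1.40.

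The list with the most called slopes was that of the pluripotency and early germ cell genes. Of its 21 measured members (22 listed) 10 rose relative to the heterozygous ovary with day and 0 fell, beside 1.85% positive calls over all genes. The median difference of the list was -3.75 at E12.5, -1.67 at E13.5, -0.80 at E14.5 and -0.43 at E15.5, and its median slope was 1.30 per day (0.79 without E12.5), beside -0.02 over all genes. At least 2-fold lower in the knockout ovary were 17 of the 21 genes at E12.5 (7.68% of all genes), 16 at E13.5 (8.96%), 10 at E14.5 (9.6%) and 5 at E15.5 (7.77%). In these bulk samples, fewer cells of a type and less RNA per cell cannot be told apart.

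Pou5f1, which encodes the pluripotency factor OCT4, had levels of -2.23, -0.79, -2.72 and -2.66 in knockout ovaries from E12.5 to E15.5, against 5.50, 4.23, 0.79 and -1.86 in heterozygous ovaries. The knockout samples stayed below every heterozygous sample of the first 3 days, and the E13.5 knockout sample was above the heterozygous sample of E15.5. The difference shrank with each day, at -7.73, -5.02, -3.51 and -0.81, or 213-fold lower at E12.5 and 1.75-fold lower at E15.5. Its slope was 2.23 ± 0.23 per day (limma adjusted p = 0.0129), made of -0.32 ± 0.29 in knockout and -2.55 ± 0.29 in heterozygous ovaries.

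Dppa3, whose product protects the maternal genome from demethylation after fertilisation and which marks primordial germ cells, had levels of -2.82, -0.76, -2.48 and -3.29 in knockout ovaries, against 5.29, 4.20, 0.70 and -1.72 in heterozygous ovaries. Its slope was 2.14 ± 0.21 per day (limma adjusted p = 0.0121). Sox2, the partner of OCT4 on DNA, had -0.83, 0.48, -1.66 and -1.84 in knockout ovaries, the lowest being at the limit, against 6.04, 4.94, 0.94 and -1.27 in heterozygous ovaries. Its slope was 2.08 ± 0.33 (adjusted p = 0.0275). In both genes the heterozygous samples descended with day while the knockout samples had no such order, and the 2 genotypes came closest at E15.5.

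Nanog, which encodes a homeodomain factor of the same network, went past the heterozygous ovary. Its levels were 0.95, 0.42, -0.94 and -1.39 in knockout ovaries, against 4.69, 1.66, -1.24 and -2.34 in heterozygous ovaries. The knockout ovary was lower at E12.5 and E13.5 and higher by 0.30 and 0.95 at E14.5 and E15.5, with a slope of 1.56 ± 0.27 per day (limma adjusted p = 0.0335). The other called members were Esrrb, an orphan nuclear receptor gene of the network (1.78 ± 0.19), Dppa2 (1.51 ± 0.28), Dppa5a (1.49 ± 0.25), the alkaline phosphatase gene Alpl, a classical primordial germ cell stain (1.40 ± 0.20), Prdm1, which encodes the germ cell specification factor BLIMP1 (0.89 ± 0.13), and Utf1 (0.86 ± 0.11). A second Esrrb probe, at the limit in 11 of 16 samples, had a slope of 0.079. Without E12.5 the slope was 0.82 for Dppa2 and 0.59 for Prdm1, and without E15.5 it was 2.29 for Dppa2. The call of Prdm1 was lost on the deposited scale (limma adjusted p = 0.0512). All 10 had the larger own slope in the heterozygous ovaries.

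**Figure D2:**
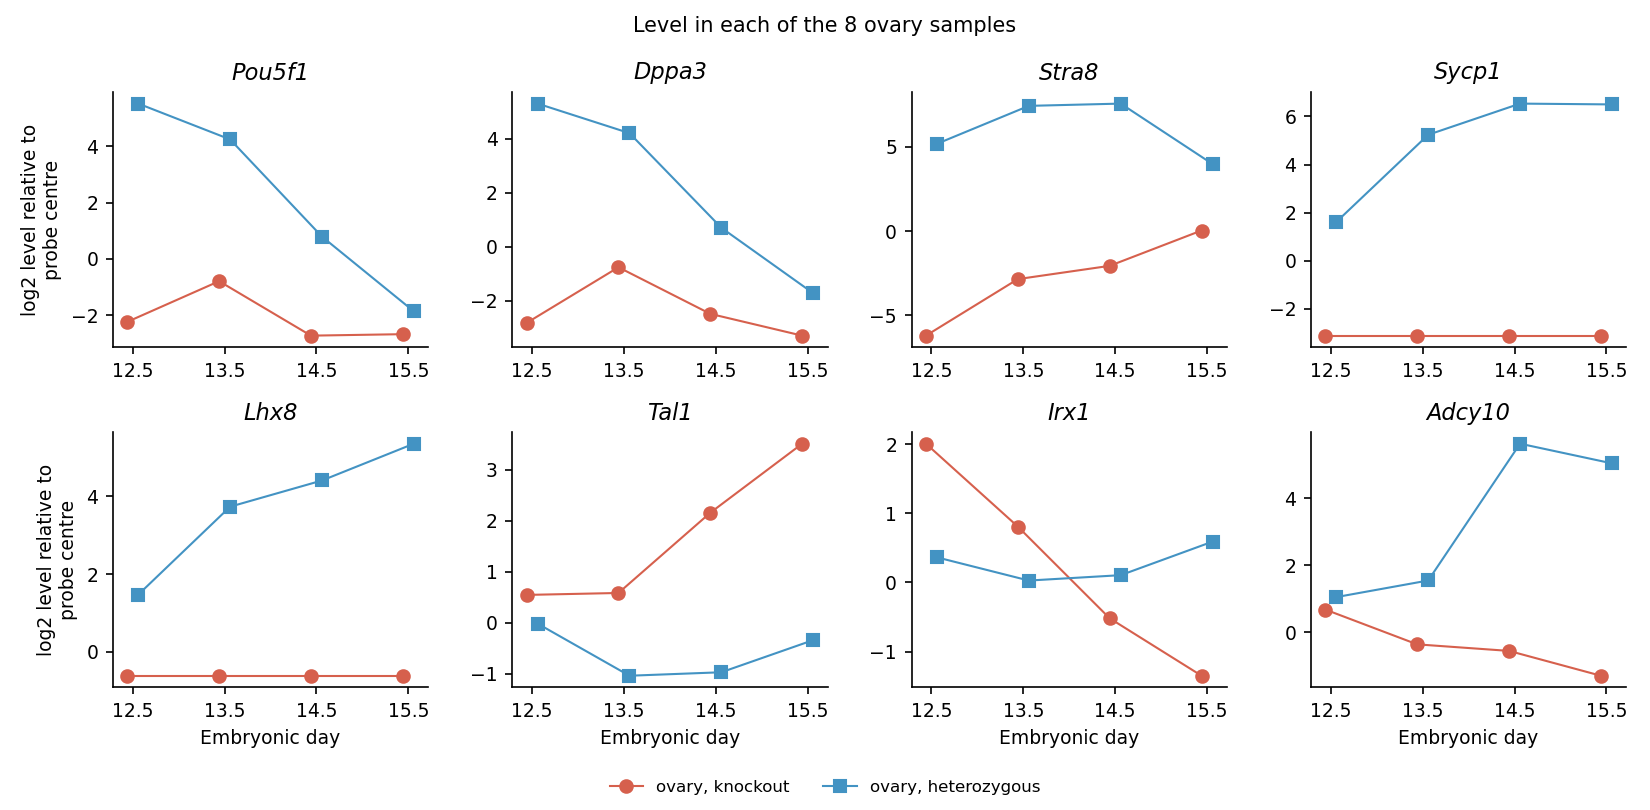
Level of 8 genes in each of the 8 ovary samples (vertical axis, log2 relative to the probe's centre) by embryonic day, with 1 sample per point. In Pou5f1 and Dppa3 the heterozygous ovaries approach the knockout ovaries by E15.5, in Sycp1, Lhx8 and Adcy10 they move away, and in Tal1 and Irx1 the knockout ovaries move.

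Other members were not called. Lin28a, a regulator of let-7 processing (1.97 ± 0.42, limma adjusted p = 0.0573), the transcription factor gene Tfap2c (1.30 ± 0.28, adjusted p = 0.0558) and Tcl1 (1.47 ± 0.35, adjusted p = 0.0748) had slopes that missed the threshold. Their differences at E15.5 were -0.74, -0.22 and -0.60. The knockout ovaries of E14.5 and E15.5 were at the limit for Lin28a, so its differences on these days are bounds. Zfp42 and Morc1 had no such course. Zfp42, also called Rex1, had levels of -3.12, -1.83, -4.11 and -4.79 in knockout ovaries, against 2.40, 1.45, 0.64 and 0.25 in heterozygous ovaries. Its 2 genotypes did not overlap, the own slope was -0.73 ± 0.28 in both, and the slope of the difference was 0.00 ± 0.35, running from -0.88 without E12.5 to 0.39 without E15.5. Morc1, needed for transposon silencing in male germ cells, had differences of -3.12, -1.22, -3.81 and -4.45 and a slope of -0.66 ± 0.42 (adjusted p = 0.431). Its knockout ovary of E15.5 was at the limit.

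**Figure D3:**
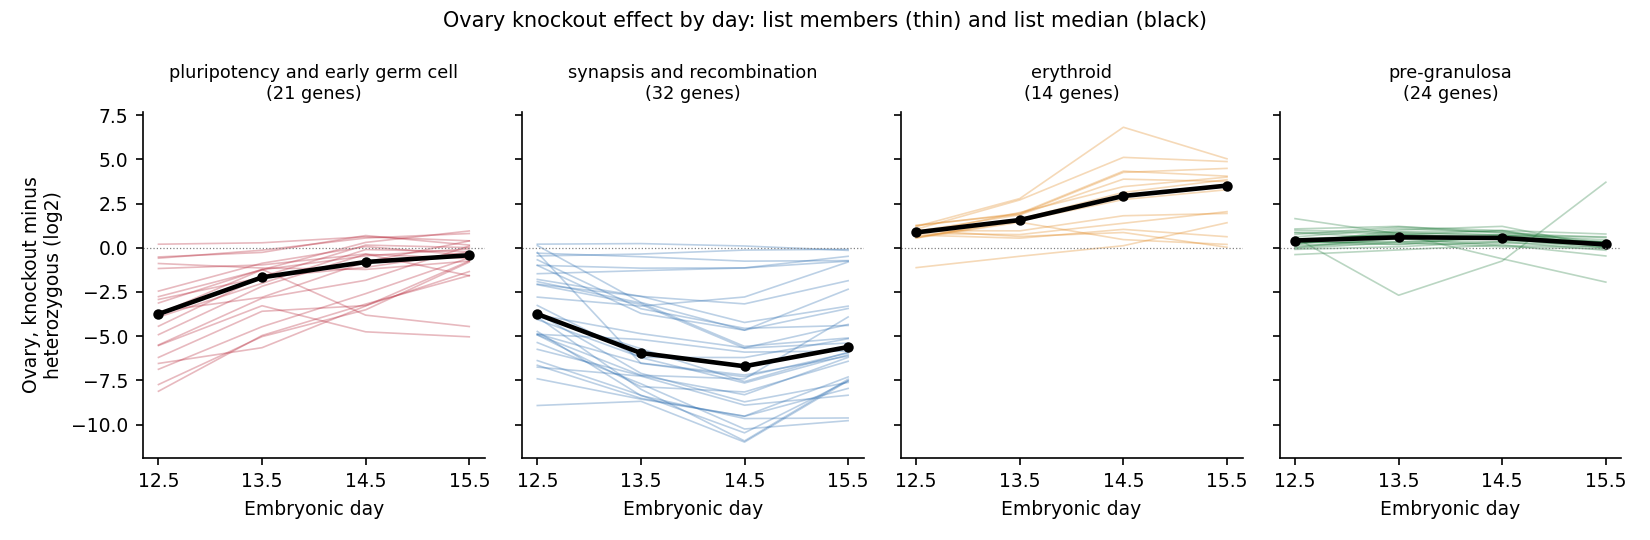
Knockout minus heterozygous in ovaries (vertical axis, log2) by embryonic day for 4 gene lists, with a thin line per gene and the list median in black. The pluripotency and early germ cell median moves from -3.75 to -0.43 over the 4 days, the erythroid median from 0.87 to 3.51, the synapsis and recombination median stays between -6.70 and -3.75, and the pre-granulosa median stays between 0.19 and 0.59.

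Promoter windows of 250 bases before to 50 after the gene start (RefSeq, GRCm38.p6) are shown for called members that hold the binding letters of OCT4. These letters are the octamer ATGCAAA on either strand. The windows are shown since the knockout minus heterozygous differences of this list rose together. The levels themselves did not rise, with a median own slope of -0.22 in knockout and -1.27 in heterozygous ovaries. The octamer stands in 3 of the 15 measured list genes with a window, Nanog, Sox2 and Zfp42, and in 4.63% of all 32851 windows. A gene counted if any of its windows held the octamer, while the percentage is over single windows, so the shares are not of the same unit. Of the 7 called genes with a window 2 hold it. Capitals mark the octamer, written on the gene's strand, so that it reads as TTTGCAT where it lies on the other strand. The Nanog window is chr6:122707239-122707538 (plus strand) and the Sox2 window chr3:34649745-34650044 (plus strand).
Nanog: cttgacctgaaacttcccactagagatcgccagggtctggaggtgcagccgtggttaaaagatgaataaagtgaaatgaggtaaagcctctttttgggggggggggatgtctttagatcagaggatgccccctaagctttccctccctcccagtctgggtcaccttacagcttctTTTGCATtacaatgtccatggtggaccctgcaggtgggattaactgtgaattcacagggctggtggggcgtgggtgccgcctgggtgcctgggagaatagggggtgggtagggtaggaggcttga
Sox2: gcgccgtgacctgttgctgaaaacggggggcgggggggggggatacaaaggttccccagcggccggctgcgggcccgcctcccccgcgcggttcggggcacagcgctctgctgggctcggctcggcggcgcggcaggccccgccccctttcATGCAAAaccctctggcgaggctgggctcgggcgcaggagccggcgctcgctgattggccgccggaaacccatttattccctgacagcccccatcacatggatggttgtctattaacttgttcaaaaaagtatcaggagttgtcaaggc
Zfp42 has the octamer letters and no called slope, and these matches describe the letters only.

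Of the 23 measured pan-germline genes (24 listed) 1 was called, with a positive slope, beside 1.85% over all genes. Slopes of any size were positive for 12 and negative for 11, and the list median was -5.37, -4.73, -5.56 and -5.55 from E12.5 to E15.5. Its median slope was 0.028 per day. Ddx4 had a slope of 0.22 ± 0.39 per day (limma adjusted p = 0.815). The called gene was Dnd1, which encodes an RNA-binding partner of NANOS proteins. Its levels were -0.48, -0.02, 0.14 and 0.14 in knockout ovaries, against 2.90, 1.01, -0.29 and -0.47 in heterozygous ovaries, so it went below at E12.5 and above at E15.5 (slope 1.34 ± 0.26, adjusted p = 0.0459). Without E12.5 its slope was 0.82, and on the deposited scale the call was lost (adjusted p = 0.0611). Dazl, a translational regulator that licenses germ cells for meiosis, had differences of -7.96, -7.26, -6.76 and -5.76 (slope 0.71 ± 0.22, adjusted p = 0.139). Tdrd9, a helicase gene of the piRNA pathway, had -1.95, -4.31, -4.38 and -6.60 (slope -1.40 ± 0.37, adjusted p = 0.0926).

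Of the 14 measured meiotic entry genes (16 listed) 0 were called by limma, and 5 had an unadjusted p under 0.05 (20.6% of all genes). Stra8, the retinoic acid-induced gate to meiosis, had levels of -6.21, -2.85, -2.07 and 0.03 in knockout ovaries, against 5.17, 7.42, 7.55 and 3.97 in heterozygous ovaries. The groups did not overlap. The heterozygous ovary was highest at E13.5 and E14.5, and the knockout ovaries were in order of day. The difference was -11.38, -10.27, -9.62 and -3.94, with a slope of 2.30 ± 0.56 per day that missed the threshold (limma adjusted p = 0.0769). Without E15.5 the slope was 0.88, and without E12.5 it was 3.17. Rec8, a meiotic cohesin subunit gene, had differences of -2.09, -2.94, -0.99 and -0.20 (slope 0.76 ± 0.25, adjusted p = 0.152).

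The synapsis and recombination genes had a list median of -3.75 at E12.5, -5.95 at E13.5, -6.70 at E14.5 and -5.61 at E15.5. The slope was negative for 25 of the 32 measured genes (38 listed) and positive for 7, and the median slope was -0.49 per day. That median was -0.18 after quantile normalization, -1.27 without E15.5 and 0.23 without E12.5, so its sign rests on the first day. Of them 1 was called, beside 1.36% over all genes, and 10 had an unadjusted p under 0.05. The called gene was Msh4, whose product stabilises recombination intermediates, with levels of -1.05, 0.35, -1.32 and -1.56 in knockout ovaries, against 1.04, 3.55, 4.35 and 3.83 in heterozygous ovaries. Its slope was -1.24 ± 0.25 (limma adjusted p = 0.0489), and the call was lost after quantile normalization (adjusted p = 0.0602).

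Sycp1, the transverse filament gene of the synaptonemal complex, was at the limit of -3.12 in all 4 knockout ovaries, against 1.61, 5.24, 6.54 and 6.50 in heterozygous ovaries. Each daily difference is therefore a bound, and its slope of -1.60 ± 0.44 per day (limma adjusted p = 0.108) is that of the heterozygous ovaries. Syce3, a central element gene, had -1.58 ± 0.32 (adjusted p = 0.0512) with 3 of 4 knockout samples at the limit, and Spo11, which makes the meiotic double-strand breaks, -1.20 ± 0.26 (adjusted p = 0.0601). Sycp3, of the lateral element, had differences of -6.64, -8.51, -9.53 and -7.95 and a slope of -0.50 ± 0.38 (adjusted p = 0.512). Dmc1, the meiotic recombinase, had -3.87, -5.71, -7.56 and -5.90. In these genes the largest difference fell at E14.5, so a straight line describes them only in part.

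Of the 16 measured oocyte genes (21 listed) 2 were called, both with negative slopes, beside 1.36% over all genes. Lhx8, a transcription factor gene that primordial oocytes need, was at the limit of -0.62 in all 4 knockout ovaries, against 1.47, 3.73, 4.41 and 5.36 in heterozygous ovaries. The heterozygous samples were in order of day, and the slope was -1.23 ± 0.23 (limma adjusted p = 0.0415). Each daily difference of Lhx8 is thus a bound, the slope is that of the heterozygous ovaries, and the gene passed the filter only through gonads in which it is above the limit. Without E12.5 its slope was -0.81, and its call was lost after quantile normalization (adjusted p = 0.0544). Npm2, a maternal histone chaperone gene, had -0.34, -0.25, -0.25 and -0.23 in knockout ovaries, against -0.81, -0.27, 0.28 and 0.70 in heterozygous ovaries. It crossed from above at E12.5 to below at E15.5 (slope -0.47 ± 0.09, adjusted p = 0.0406, and 0.0530 on the deposited scale). Nobox, another oocyte transcription factor gene, had -1.07 ± 0.32 (adjusted p = 0.126), and Figla, which controls zona genes, -1.52 ± 0.97 (adjusted p = 0.422) with all 4 knockout samples at the limit. Nlrp14 went the other way, at 1.40 ± 0.52 (adjusted p = 0.192), with all 4 knockout and 1 of 4 heterozygous samples at the limit. Of 8 measured male germ cell genes 0 were called by limma and 1 had an unadjusted p under 0.05.

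Of the 14 measured erythroid genes (18 listed) 6 rose relative to the heterozygous ovary with day and 0 fell, beside 1.85% positive calls over all genes. The list median was 0.87, 1.57, 2.93 and 3.51 from E12.5 to E15.5, with a median slope of 0.99 per day. The median own slope was 0.99 in knockout and 0.08 in heterozygous ovaries, and all 6 called genes had the larger own slope in knockout ovaries. At least 2-fold higher in the knockout ovary were 4 of the 14 genes at E12.5 (4.13% of all genes), 9 at E13.5 (5.71%), 11 at E14.5 (3%) and 11 at E15.5 (3.14%).

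Tal1, a transcription factor gene of blood stem cells and the red cell lineage, had levels of 0.55, 0.59, 2.16 and 3.51 in knockout ovaries, against -0.01, -1.03, -0.97 and -0.34 in heterozygous ovaries. All 4 knockout samples were above all 4 heterozygous samples, and the last 2 days stood furthest apart. The slope was 1.14 ± 0.11 per day (limma adjusted p = 0.0121). Rhag, a red cell membrane channel gene, had 0.67, 1.82, 3.06 and 4.71 in knockout ovaries, against -0.61, -0.07, -1.20 and 0.22 in heterozygous ovaries (slope 1.20 ± 0.19, adjusted p = 0.0296). Epor, the erythropoietin receptor gene, had -0.04, 1.30, 2.79 and 4.12 in knockout ovaries, against -0.81, -0.69, -0.67 and 0.12 in heterozygous ovaries (slope 1.11 ± 0.14, adjusted p = 0.0182). In these genes the knockout samples were in order of day, and the difference at E15.5 was 14.4-fold for Tal1, 22.4-fold for Rhag and 15.9-fold for Epor.

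The other called genes were Slc4a1, the band 3 anion exchanger of the red cell membrane (1.05 ± 0.20, lost after quantile normalization at a limma adjusted p of 0.0526), Gata1, the master regulator of the lineage (0.93 ± 0.14), and Tfrc, the transferrin receptor for iron uptake (0.82 ± 0.09). Klf1, an activator of adult beta globin, had 0.27, 2.51, 4.09 and 5.34 in knockout ovaries, against -0.78, -0.19, -1.02 and 0.47 in heterozygous ovaries, and its slope of 1.39 ± 0.29 missed the threshold (limma adjusted p = 0.0525). Hemgn had 1.55 ± 0.52 (adjusted p = 0.157) and the haem synthesis gene Alas2 0.38 ± 0.09 (adjusted p = 0.0717). The embryonic globin gene Hbb-y had levels of 2.10, 1.27, -0.71 and -3.90 in knockout ovaries, against 1.11, 0.64, -1.57 and -3.93 in heterozygous ovaries, and descended with day in both genotypes. The slope of the difference was -0.26 ± 0.11 (limma adjusted p = 0.240).

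Promoter windows (RefSeq, GRCm38.p6) are shown for the called erythroid genes that hold the letters GATA1 binds, AGATAA or TGATAA on either strand, since these genes and Gata1 itself moved together. The letters stand in 10 of the 12 erythroid genes with a window, in 3 of the 5 called ones, and in 18.61% of all windows. As above, a gene counted if any of its windows held them, and the percentage is over single windows. Capitals mark them on the gene's strand, so that they read as TTATCT or TTATCA where they lie on the other strand. The windows are chr4:115056176-115056475 for Tal1 (plus strand), chr17:40810899-40811198 for Rhag (plus strand) and chr9:21963527-21963826 for Epor (minus strand).
Tal1: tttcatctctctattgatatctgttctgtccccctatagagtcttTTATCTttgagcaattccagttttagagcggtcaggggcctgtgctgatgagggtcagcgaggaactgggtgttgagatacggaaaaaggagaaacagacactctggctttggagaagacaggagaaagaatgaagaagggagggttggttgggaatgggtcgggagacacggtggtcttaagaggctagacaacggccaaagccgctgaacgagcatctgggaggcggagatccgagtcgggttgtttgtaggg
Rhag: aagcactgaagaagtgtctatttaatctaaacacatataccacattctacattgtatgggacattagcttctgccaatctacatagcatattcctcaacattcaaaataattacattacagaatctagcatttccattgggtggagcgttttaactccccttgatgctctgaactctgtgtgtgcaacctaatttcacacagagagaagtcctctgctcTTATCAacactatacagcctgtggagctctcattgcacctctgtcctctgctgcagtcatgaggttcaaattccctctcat
Epor: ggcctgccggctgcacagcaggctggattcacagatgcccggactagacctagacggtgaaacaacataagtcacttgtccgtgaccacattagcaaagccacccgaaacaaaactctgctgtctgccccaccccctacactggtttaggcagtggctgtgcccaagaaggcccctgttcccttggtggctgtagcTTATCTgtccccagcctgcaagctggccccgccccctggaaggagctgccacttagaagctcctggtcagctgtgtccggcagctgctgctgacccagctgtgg
A match says nothing of binding in these samples.

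Of 13 measured granulocyte and mast cell genes (14 listed) 1 was called, beside 1.85% positive calls over all genes. All 13 had a positive slope, beside a median slope of -0.02 over all genes. The median difference of the list was 1.34, 1.60, 2.98 and 2.99 from E12.5 to E15.5, and the knockout ovary was higher for 10, 12, 12 and 13 of the 13 genes. The called gene was S100a8, a neutrophil calprotectin subunit gene, at 0.33, 2.56, 3.74 and 2.77 in knockout ovaries and -1.39, 0.06, 0.58 and -3.03 in heterozygous ovaries (slope 1.29 ± 0.23, limma adjusted p = 0.0379). Without E15.5 its slope was 0.72. Mpo, a granule enzyme gene of myeloid precursors, had differences of 0.01, 1.60, 5.09 and 3.25, and Ctsg -1.12, 0.73, 5.33 and 2.66, both highest at E14.5. Of 13 macrophage genes (14 listed) 0 were called and 12 had a negative slope, among them Mrc1 (-0.41 ± 0.10, adjusted p = 0.0795).

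A list of 11 hepatocyte genes was added after the erythroid values had been seen, because the fetal liver makes red cells and granulocytes. Of 9 measured, 0 had a called slope and 0 an unadjusted p under 0.05. The list was higher in the knockout ovary on each day, with medians of 1.68, 2.41, 1.61 and 2.19. The median level of the list was 0.08, 3.38, 0.30 and 1.25 in knockout ovaries and -2.82, 0.69, -1.41 and -0.68 in heterozygous ovaries, so that both genotypes peaked at E13.5. Alb, the serum albumin gene, had levels of -0.39, 3.98, 0.31 and 1.57 in knockout ovaries, against -3.50, 1.46, -2.17 and -0.78 in heterozygous ovaries. Its difference was 3.11, 2.52, 2.48 and 2.36 (slope -0.23 ± 0.38, limma adjusted p = 0.794). The part of blood or liver tissue in the erythroid and granulocyte slopes was not tested.

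Of 24 measured pre-granulosa genes (24 listed), of the supporting cell lineage, 1 was called, with a negative slope, beside 1.36% over all genes. The list medians were 0.41, 0.59, 0.56 and 0.19. Foxl2 had differences of -0.09, 0.06, 0.35 and -0.14 and a slope of 0.013 ± 0.105 (limma adjusted p = 0.969), whose sign turned on the deposited scale (-0.083). Wnt4, the ovary-promoting ligand, had 0.99, 0.88, 0.73 and 0.19 (slope -0.25 ± 0.083, adjusted p = 0.152). The called gene was Irx1, an Iroquois factor gene of pre-granulosa cells. Its levels were 2.01, 0.81, -0.52 and -1.35 in knockout ovaries, against 0.36, 0.03, 0.11 and 0.59 in heterozygous ovaries. The knockout ovary was 3.13-fold higher at E12.5 and 3.84-fold lower at E15.5, and the slope was -1.22 ± 0.12 (adjusted p = 0.0121). The knockout samples were in order of day and the heterozygous samples were not. In testes the Irx1 slope was also negative, at -0.61 ± 0.12 (limma adjusted p = 0.0423). A second Irx1 probe, at the limit in 12 of 16 samples, had a slope of -0.37.

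Of 21 measured Sertoli genes (23 listed) 0 were called by limma, and 4 had an unadjusted p under 0.05 (20.6% of all genes). Sox9 was higher in the knockout ovary by 1.06, 0.86, 0.85 and 0.81 (slope -0.08 ± 0.08, adjusted p = 0.670). Dmrt1, also a germ cell gene in the fetal ovary, had differences of -2.93, -4.34, -1.72 and -0.60 (slope 0.96 ± 0.32, adjusted p = 0.158), with 2 of 4 knockout samples at the limit. Of 9 fetal Leydig genes (12 listed) 0 were called and 0 had an unadjusted p under 0.05. Of 12 interstitial and peritubular genes (14 listed) 1 was called, with a negative slope, beside 1.36% over all genes. It was the Hedgehog effector gene Gli1, at -0.36, -1.27, -1.96 and -1.82 in knockout ovaries and -1.56, -1.67, -1.97 and -1.31 in heterozygous ovaries. It was above at E12.5 and below at E15.5 (slope -0.55 ± 0.07, limma adjusted p = 0.0216), and the call was lost after quantile normalization (adjusted p = 0.0549).

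Of 14 endothelial genes 0 were called and 2 had an unadjusted p under 0.05, among them the junction gene Pecam1, at 0.43 ± 0.15 (limma adjusted p = 0.169). Of 8 mesonephric genes (10 listed) 1 was called, with a negative slope, beside 1.36% over all genes. It was the keratin gene Krt8, at 0.67, 0.80, 0.82 and 0.75 in knockout ovaries and -0.35, 0.13, 0.62 and 0.92 in heterozygous ovaries (slope -0.40 ± 0.07, limma adjusted p = 0.0340). Its call was lost on the deposited scale (adjusted p = 0.0530) and after quantile normalization (adjusted p = 0.0583). The tubule cadherin gene Cdh16 was higher in the knockout ovary by 3.24 at E12.5 and by 0.38 to 1.28 on the later days. It had the most negative slope of this list, in which 6 slopes were negative and 2 positive, up to 0.76. Of 16 cell cycle genes (17 listed) 2 rose relative to the heterozygous ovary, beside 1.85% positive calls over all genes. They were Ccna2 (cyclin A2, 0.61 ± 0.10, adjusted p = 0.0299) and Pcna (the replication clamp, 0.55 ± 0.08, adjusted p = 0.0258). Both calls were lost on the deposited scale (adjusted p = 0.0857 for Ccna2 and 0.0827 for Pcna), and the slope of Ccna2 was 0.37 without E12.5. Mki67 had 0.47 ± 0.10 (adjusted p = 0.0609). The apoptosis and p53 response list (12 measured of 13), the immediate early and heat shock list (13 of 13) and the housekeeping list (9 of 10) had 0 calls by limma, with 2, 1 and 1 genes at an unadjusted p under 0.05.

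**Figure D4:**
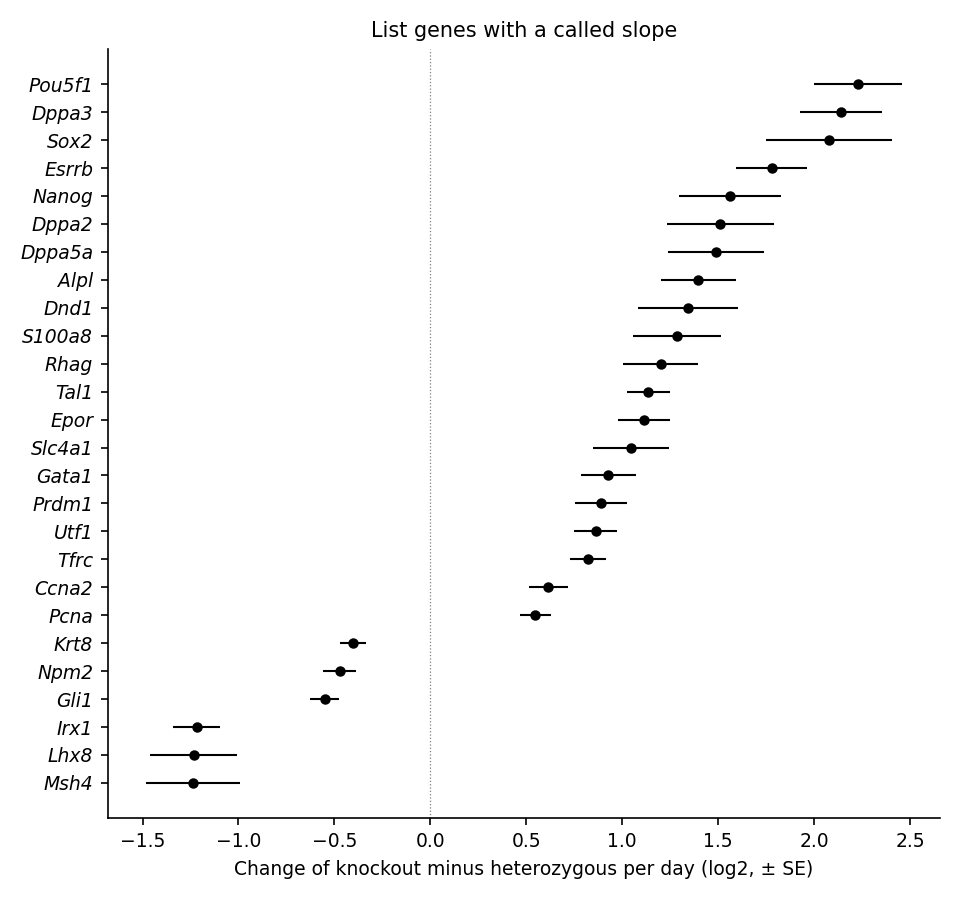
Slope of the ovary knockout effect (horizontal axis, log2 per day) for the 26 list genes with a called slope, as point and standard error from limma. The slopes run from -1.24 for Msh4 to 2.23 for Pou5f1, with 20 positive and 6 negative.

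Over all genes, the 10 most positive called slopes held Pou5f1, Dppa3 and Sox2 beside 7 genes outside the lists. The largest was 2.72 ± 0.34 per day for the amino acid transporter gene Slc6a20a (limma adjusted p = 0.0190). Its levels were -0.84, -0.67, 0.88 and 3.59 in knockout ovaries, against 2.86, 0.42, -0.84 and -0.84 in heterozygous ovaries, with the -0.84 values at the limit. The 2 genotypes changed places, with differences of -3.70 at E12.5 and 4.43 at E15.5, or at least 21.5-fold higher in the knockout ovary on the last day. Aqp3, a water and glycerol channel gene, had 0.82, 0.86, 3.30 and 4.65 in knockout ovaries, against 2.61, 0.55, -0.78 and -0.25 in heterozygous ovaries (slope 2.38 ± 0.30, adjusted p = 0.0192).

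The other 5 had their larger own slope in the heterozygous ovaries. Gdf3, a TGF-beta family ligand gene of pluripotent cells, had differences of -5.53, -2.21, 1.09 and 1.21 (slope 2.35 ± 0.40), with 2 heterozygous samples at the limit, where the difference is a bound. Phlda2, an imprinted gene, had -5.34, -4.17, -1.13 and 0.54 (slope 2.07 ± 0.24). Liph had -5.34, -2.95, -1.23 and 0.92 (slope 2.05 ± 0.25). In these genes the knockout ovary was below the heterozygous ovary at E12.5 and E13.5 and above it at E15.5. Dpys, a pyrimidine breakdown gene, had a slope of 1.90 ± 0.36 (0.97 without E12.5) and a difference of 0.98 at E15.5, and the X-linked homeobox gene Rhox5 had 1.83 ± 0.19 (limma adjusted p = 0.0123), at -6.16, -4.24, -2.85 and -0.52.

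The 10 most negative called slopes belonged to genes outside the lists, and 8 of them had the larger own slope in heterozygous ovaries. Reg2 was at the limit of 0.36 in all 4 knockout ovaries and in the heterozygous ovary at E12.5, against 3.96, 8.03 and 7.57 in heterozygous ovaries at E13.5 to E15.5 (slope -2.57 ± 0.50, limma adjusted p = 0.0471), and was at least 148-fold lower at E15.5. Adcy10, the soluble adenylyl cyclase gene, had 0.68, -0.36, -0.56 and -1.30 in knockout ovaries, against 1.05, 1.54, 5.63 and 5.05 in heterozygous ovaries (slope -2.22 ± 0.34, adjusted p = 0.0260). Morn5 had the lowest adjusted p of the 10, with 0.40, -0.00, 0.24 and 0.12 in knockout ovaries and -0.65, 0.78, 3.33 and 4.78 in heterozygous ovaries (slope -1.94 ± 0.14, adjusted p = 0.00477). In Adcy10 and Morn5 the knockout ovary was close to or above the heterozygous ovary at E12.5 and far below it from E14.5. The E12.5 difference of Reg2 is undefined, as both genotypes were at the limit, and its later differences are bounds. The Reg2 slope is thus that of the heterozygous ovaries. Reg2 was at the limit in 11 of 16 samples and passed the filter mostly through heterozygous ovaries. Its testis differences, at 0.39, 0.00, -0.08 and 0.00, lay at or near the limit and share the error behind its p-value. That p-value is thus no measure of the spread between ovaries, and the call was lost after quantile normalization.

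Myh4, a skeletal muscle myosin gene (-2.37 ± 0.32), Aspa, the aspartoacylase gene (-2.12 ± 0.40, and -1.05 without E12.5), Myom3, a sarcomere M-band gene (-1.99 ± 0.33), Elavl3, a neuronal RNA-binding protein gene (-1.96 ± 0.29), and Kidins220 (-1.92 ± 0.27) also had their larger own slope in the heterozygous ovaries. The call of Aspa was lost after quantile normalization (limma adjusted p = 0.0576). Other probes of Myh4 and Kidins220 had slopes of -0.40 and -0.032. In ccdc198 and Galnt3 the knockout ovaries moved instead. ccdc198 had 3.64, 1.68, -2.27 and -2.27 in knockout ovaries, the last 2 at the limit, against 0.62, -0.45, -0.15 and 0.30 in heterozygous ovaries (slope -2.10 ± 0.29, limma adjusted p = 0.0234). Galnt3, which starts O-linked sugar chains, had 1.57, 0.65, -2.96 and -2.83 in knockout ovaries, against 0.35, -0.03, 0.05 and 1.01 in heterozygous ovaries (slope -1.88 ± 0.28, adjusted p = 0.0251). The E12.5 knockout ovary was the highest of the 8 in both, as it was for the mesonephric tubule gene Cdh16. Of the 8 measured mesonephric genes, 6 were higher and 2 lower in the knockout ovary at E12.5. The part of mesonephric tissue was not tested. In testes the slope was also called for Myh4 (-2.37, limma adjusted p = 0.0169), ccdc198 (-1.86, adjusted p = 0.0232), Galnt3 (-1.81, adjusted p = 0.0214) and Morn5 (-1.30, adjusted p = 0.00865). It was not called there for Reg2, Adcy10, Aspa, Myom3, Elavl3 and Kidins220. Their testis slopes were negative too, from -1.45 for Adcy10 to -0.06 for Myom3. The ovary minus testis slope was called for none of these genes (limma adjusted p = 0.124 to 0.488).

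Set as late against early days, 0 genes were called by limma (0%), with a smallest adjusted p of 0.0588 and 2737 genes (16.5%) at an unadjusted p under 0.05. Without E13.5, where the early period rests on 1 pair of samples, 159 were called, 135 were called on the deposited scale, 36 without a variance trend, 20 with no filter and 15 with the mean of a gene's probes. The median difference of all genes was 0.11 late and 0.10 early, and on the deposited scale -0.12 late and 0.14 early. The 10 genes of lowest adjusted p share the value 0.0588. Myom3 had -4.64 late and 0.05 early, and Barx1, a homeobox gene, -3.04 late and -0.75 early. Phf19, a Polycomb-associated gene, had 0.18 late and -3.22 early, and the phosphatase gene Ppm1n -0.68 late and -4.32 early.

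The other 6 of those genes were 4930486L24Rik (late minus early -3.31 ± 0.29), Acnat1 (-2.71 ± 0.30), the scavenger receptor gene Stab2 (-2.60 ± 0.28), the tight junction gene Cldn4 (-1.78 ± 0.20), Fam161b (-1.78 ± 0.16) and the carbonic anhydrase gene Car7 (1.53 ± 0.16). In Fam161b the knockout ovary differed by 0.31 and 0.20 on the early days and by -1.56 and -1.49 on the late days. The step thus lay between E13.5 and E14.5, with 1 sample per genotype and day. A second Fam161b probe, not at the limit in any sample, had a slope of -0.30 per day, against -0.72 for the probe used. The pluripotency and early germ cell list had a median of -0.67 late and -2.96 early, the erythroid list 3.25 late and 1.07 early, and the synapsis and recombination list -5.77 late and -4.76 early. Among the list genes with a called slope, Rhag had the late minus early difference of lowest adjusted p, at 2.79 ± 0.34 (limma adjusted p = 0.0653), with 4.37 late and 1.58 early.

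The change with day differed between ovary and testis for 132 genes (0.796%) by limma, 125 with the more positive slope in the ovary, and 64 of the 132 also had a called slope in the ovary. An unadjusted p under 0.05 was reached by 2580 genes. Of the slopes called in the ovary, 204 of the 306 positive and 176 of the 226 negative had the same sign in the testis. Tfrc, with 0.82 per day in the ovary, had 0.625 in the testis (limma adjusted p = 0.0208). On the deposited scale 283 differed, after quantile normalization 24, with no filter 11, without the matching by day 11, with array weights 11, and without any 1 of the days 0, where 1901 to 2351 genes had an unadjusted p under 0.05. Pou5f1 had ovary differences of -7.73, -5.02, -3.51 and -0.81, against testis differences of -5.58, -7.54, -8.60 and -8.69. The ovary and testis slopes were 2.23 and -1.04 per day, and their difference was 3.27 ± 0.33 (adjusted p = 0.0220). Dppa3 differed likewise, by 3.12 ± 0.30 (adjusted p = 0.0220), with -6.40, -8.04, -9.11 and -9.30 in testes.

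Phlda2 (3.88 ± 0.34, limma adjusted p = 0.0153), Liph (2.58 ± 0.35, adjusted p = 0.0390), Utf1 (1.26 ± 0.16, adjusted p = 0.0390) and Tal1 (1.20 ± 0.16, adjusted p = 0.0390) also differed. The testis differences of Tal1 were 0.51, 0.96, 0.42 and 0.48. Nanog (1.17 ± 0.38, adjusted p = 0.208) and Sox2 (0.97 ± 0.46, adjusted p = 0.373) did not pass the test, with testis differences of -6.00, -6.66, -5.21 and -2.79 for Sox2. Those of E14.5 and E15.5 are bounds, as the knockout testes were at the limit. Of 21 pluripotency and early germ cell genes 3 differed, and of 14 erythroid genes 1 did, beside 0.796% of all genes. The list medians were -0.43 in ovary and -2.79 in testis at E15.5 for the pluripotency and early germ cell genes, and 3.51 in ovary and 0.73 in testis for the erythroid genes.

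**Figure D5:**
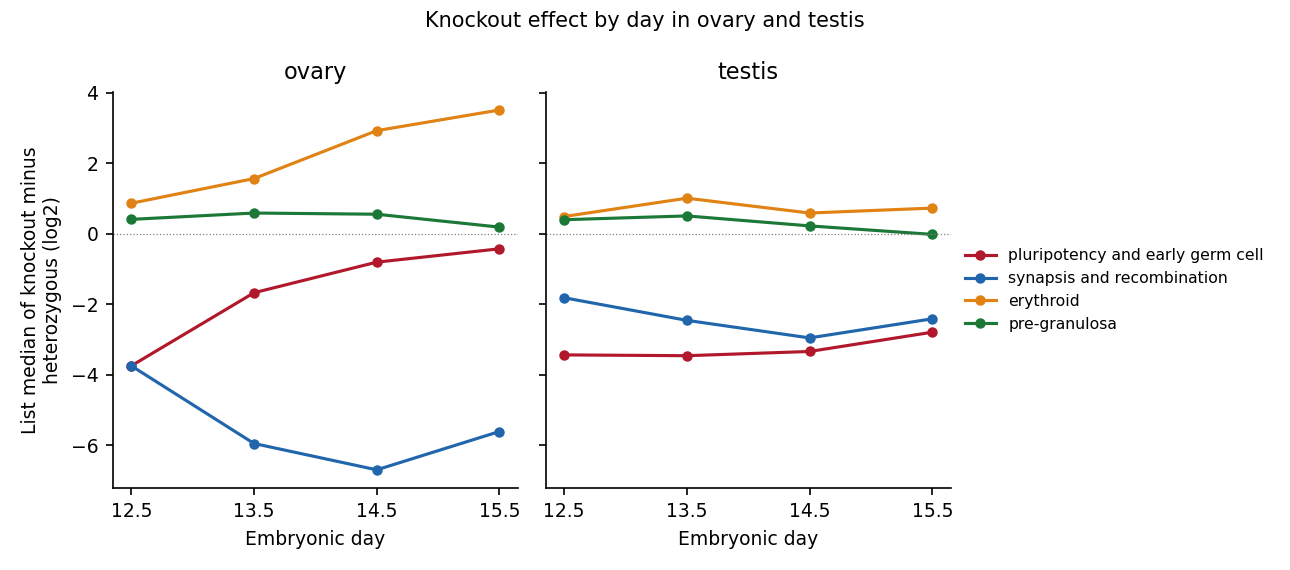
Median knockout minus heterozygous difference (vertical axis, log2) of 4 gene lists by embryonic day, in ovary (left) and testis (right). The pluripotency and early germ cell median reaches -0.43 in ovary and -2.79 in testis at E15.5, and the erythroid median 3.51 in ovary and 0.73 in testis.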

How the data were processed

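The deposited values are linear ratios of a probe's signal to its typical signal over the samples, which was read from the values (the median of the probe medians is 1.01). The arrays were read with Agilent Feature Extraction 9.5, per the submitters' processing notes, and the authors' scaling, centring and way of combining replicates are not given in the sources used here. Values at the authors' limit for weak signals were recovered from ratios shared between samples, with a tolerance of 0.0002 (log2). Of 41267 probes 93 controls were left out, and 32664 of the rest carry 1 gene symbol in the platform annotation, 45 several and 8465 none. Arrays were shifted to a shared 75th percentile of the 28373 probes that never met the limit (shifts of -0.26 to 0.33, log2), the values of a probe were lifted to its highest limit in any sample (limits differed by up to 1.08), and log2 was taken with no pseudocount. Genes were kept if 4 or more of the 16 samples exceeded the limit, each with its probe that met the limit least often, then of highest mean. For 18 of 203 called genes with several probes the probes disagree in sign.

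Models were fitted with limma 3.58.1 in R 4.3.3 (lmFit, eBayes with trend) on all 16 samples, with a term for each sex and day, a knockout effect per sex and its change per day, or 1 effect each for early and late days. This leaves 4 residual degrees of freedom. Adjusted p-values are Benjamini-Hochberg over 16581 genes. The fits were tested on simulated data. A value after ± is limma's standard error. The days are the only replication and the p-values rest on the spread around a line over them. Matching by day comes from the labels. Deviations from the group means correlated between the knockout and heterozygous ovary of a day at 0.478, 0.758, 0.525 and 0.514 over genes from E12.5 to E15.5, each the highest of its row and column.

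The subject, the members and the 19 gene lists were chosen with earlier results of these data known, and the hepatocyte list was added later. Named genes come from the first 4 measured genes of each list, the 3 most positive and negative slopes in each, the 10 most positive and negative called slopes, the 10 late minus early differences of lowest adjusted p, and Nanos3. The other called list genes, and Lin28a, Tfap2c, Tcl1, Spo11 and Dmc1, were chosen after their values were seen. Not all genes of the rule are named. Promoter letters were searched on both strands of RefSeq windows, found by symbol.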

Additional observations from a re-analysis of the deposited data

Results flagged for a closer look

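The median knockout effect of the 8 male germ cell genes in ovaries stood apart on 1 of 4 days, at -2.62 at E12.5, against -0.07, -0.14 and -0.02 on the later days. The gap took 0.955 of the range. At least 2-fold lower in the knockout ovary were 6 of the 8 genes at E12.5 (7.68% of all genes), and 3 at E13.5 (8.96%), E14.5 (9.6%) and E15.5 (7.77%). Chance flags about 1 in 20 groups.

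The slope of the knockout effect differed between ovary and testis, by an interaction term in limma, for 6 of the genes named above. The ovary minus testis slope was 3.27 ± 0.33 per day for Pou5f1, 3.12 ± 0.30 for Dppa3, 3.88 ± 0.34 for Phlda2, 2.58 ± 0.35 for Liph, 1.26 ± 0.16 for Utf1 and 1.20 ± 0.16 for Tal1. In Pou5f1, Dppa3, Phlda2, Liph and Utf1 the knockout effect moved towards 0 in the ovary, while the testis slopes were negative, at -1.04, -0.98, -1.81, -0.53 and -0.40 per day. In Tal1 it moved away from 0 in the ovary, and the testis slope was -0.06.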

How the results depend on the processing

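Slope calls in the ovary numbered 532, and 474 on the deposited scale, 761 after quantile normalization, 440 without the common limit, 538 over genes above the limit in all 8 ovary samples, 616 with the mean of a gene's probes and 487 without the variance trend. They numbered 44 with no filter, 0 with the ovary samples alone, 97 with no replicate block (matching by day left out) and 18 with array weights, and 0 to 0 when each day was left out. Fewer residual degrees of freedom remain when a day is left out (2) or with the ovary alone (2); for the other settings the cause was not tested. Late minus early calls numbered 0, and 135 on the deposited scale, 20 with no filter, 15 with the mean of probes, 36 without the trend and 0 to 159 when each day was left out. Ovary minus testis slope calls numbered 132, and 283 on the deposited scale, 24 after quantile normalization, 11 with no filter, 11 with no replicate block, 11 with array weights and 0 to 0 when each day was left out. None of the 48 called genes named above changed sign in any of these settings in which it was tested. Their calls were less stable. Of the 48, 38 were still called without the common limit, 17 with no replicate block, 1 with no filter and 1 with array weights. With the ovary alone, or with any day left out, 0 were. Of the other named genes, the slope of Foxl2 turned to -0.083 on the deposited scale. When each day was left out, the slope ran from -0.10 to 0.22 for Foxl2, from -1.44 to 0.28 for Sycp3 and from -0.24 to 0.46 for Ddx4. Arrays give no counts, and the number of arrays limits the precision.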
